A study of Homo sapiens with 4 samples.

Results

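Signals for 8 transcription factors of the noradrenergic neuroblastoma program were followed in SH-SY5Y cells, an established human neuroblastoma line, after knockdown of LSD1. The factors were PHOX2A, HAND1, HAND2, ISL1, GATA2, GATA3, TBX2 and TFAP2B. They were represented by every probe set whose platform annotation gave exactly 1 gene symbol, that symbol being one of the 8, which yielded 17 probe sets out of 41091 with 1 symbol, and 8 genes out of 19775. Transfection was with control siRNA (siControl, 2 arrays) or with siRNA directed against LSD1 (siLSD1, 2 arrays), each array from an independent transfection according to the design text. All 4 arrays came from the same line, so the spread between arrays is that between transfections of 1 line. The siRNA sequences, the dose and the time after transfection were not given in the sources used here. LSD1, encoded by KDM1A, removes methyl groups from histone lysines.

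Sympathetic neurons and adrenal chromaffin cells arise from the neural crest under a small group of transcription factors that bind the enhancers of their own and of each other's genes. In neuroblastoma this self-sustaining group is known as the core regulatory circuit of the noradrenergic (adrenergic) cell state, as opposed to a mesenchymal state. PHOX2A is a paired-type homeodomain protein that switches on noradrenaline synthesis genes. HAND1 and HAND2 are basic helix-loop-helix proteins that bind E-boxes together with E-proteins. ISL1 is a LIM-homeodomain protein of sympathetic and motor neurons. GATA2 and GATA3 are zinc finger proteins that recognise GATA sequences, TBX2 is a T-box repressor, and TFAP2B belongs to the AP-2 family of neural crest regulators.

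Because these factors act on each other's regulatory DNA, the 250 bases before the annotated start of the members with a single start that is also the outermost base of the annotated gene are shown, read 5′ to 3′ on the strand of the gene. The sequences are from RefSeq (GRCh38.p14), for which 7 of the 8 members had at least 1 window. TBX2 had no entry. Capitals mark every match, on either strand, to an E-box (CANNTG), a GATA sequence (GATAA), a homeodomain sequence (TAATTA), a T-box sequence (AGGTGT) or an AP-2 sequence (GCCNNNGGC). A homeodomain and a GATA match may overlap, as they do in HAND2.
PHOX2A, chr11:72244177-72244426, minus strand: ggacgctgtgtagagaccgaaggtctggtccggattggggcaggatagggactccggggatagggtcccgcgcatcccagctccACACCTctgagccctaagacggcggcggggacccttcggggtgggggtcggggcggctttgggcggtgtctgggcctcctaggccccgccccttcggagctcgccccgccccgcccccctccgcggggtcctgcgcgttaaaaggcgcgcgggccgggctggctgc
HAND1, chr5:154478228-154478477, minus strand: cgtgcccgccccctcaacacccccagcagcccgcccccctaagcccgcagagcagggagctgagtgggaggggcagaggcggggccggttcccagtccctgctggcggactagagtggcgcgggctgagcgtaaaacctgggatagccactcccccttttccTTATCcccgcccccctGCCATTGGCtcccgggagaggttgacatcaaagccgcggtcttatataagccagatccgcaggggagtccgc
HAND2, chr4:173530230-173530479, minus strand: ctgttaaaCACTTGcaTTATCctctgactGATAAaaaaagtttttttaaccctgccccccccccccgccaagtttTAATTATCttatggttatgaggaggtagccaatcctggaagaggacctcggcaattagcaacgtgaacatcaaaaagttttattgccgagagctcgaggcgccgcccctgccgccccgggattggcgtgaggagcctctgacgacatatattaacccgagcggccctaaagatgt
ISL1, chr5:51383198-51383447, plus strand: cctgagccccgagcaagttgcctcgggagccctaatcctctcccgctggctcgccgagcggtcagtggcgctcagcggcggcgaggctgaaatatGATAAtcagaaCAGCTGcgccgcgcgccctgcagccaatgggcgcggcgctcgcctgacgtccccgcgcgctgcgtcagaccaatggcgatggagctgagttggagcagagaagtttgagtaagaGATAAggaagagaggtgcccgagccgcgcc

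The HAND2 window held 3 GATA matches, beginning 234, 221 and 172 bases before the start, together with 1 homeodomain match and 1 E-box match. The ISL1 window held 2 GATA matches and 1 E-box match, the HAND1 window 1 GATA and 1 AP-2 match, and the PHOX2A window 1 T-box match. The TFAP2B window, which is not printed, held no match to any of the 5 sequences. Over all 13 windows of the members, GATA2 having 2 annotated starts and GATA3 having 6, an E-box occurred in 5, GATA in 4, AP-2 in 6, T-box in 2 and the homeodomain sequence in 1. In the 35116 windows of the same length in the table, the shares with a match were 61.8% for the E-box, 20.4% for GATA, 19.8% for AP-2, 9.57% for T-box and 4.35% for the homeodomain sequence. These are matches of letters in a short window and say nothing of binding.

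The comparison addressed whether the noradrenergic factors differ in transcript level when LSD1 is knocked down. KDM1A itself fell to 40.1% of its control signal (probe set 212348_s_at). Its log2 signals were 9.79 and 9.78 in siControl and 8.40 and 8.54 in siLSD1 cells, with group means of 9.79 ± 0.0062 and 8.47 ± 0.10 (SD, n = 2). The log2 fold change was -1.32 (95% interval -1.70 to -0.94), and KDM1A had the smallest unadjusted p of any of the 32768 probe sets tested (6.24e-05 in limma). Its adjusted p of 0.986 over all of them did not pass the threshold of 0.05. With 2 arrays a group the smallest p that exact two-sided permutation can reach is 0.333, so no single value could pass such a test. Fold changes give siLSD1 over siControl throughout, and all signals are log2 values after quantile normalization, which gives each array the same distribution. In RNA from whole cultures, fewer cells of a kind and less RNA per cell cannot be told apart.

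The arrays and the cell line were checked as a whole. Pairwise correlations between arrays over the tested probe sets ran from 0.941 to 0.966, and those with siControl replicate 1 were all at or below 0.943, so that this array stood somewhat apart. On siLSD1 replicate 2 the control probe set for ribosomal RNA was at 10.3 on the deposited log2 scale, against 5.24 to 5.33 on the other arrays, and the signal at the 3′ end of ACTB exceeded that at the 5′ end by 1.16, against 0.54 to 0.71. Of 12 markers of neuroblastoma lines, 11 lay above the filter level of 3.26, with STMN2, a neuronal stathmin, at 12.1 on all 4 arrays. The exception was TH, the tyrosine hydroxylase of catecholamine synthesis, whose brightest probe set ranged from -0.83 to 3.16. Of the marker genes with a probe set, 1 of 4 for Schwann cells, 2 of 4 for blood cells and 6 of 6 for fibroblasts were above the filter. The Schwann cell marker SOX10 and the leukocyte marker PTPRC stayed below it, and the fibroblast list was led by the collagen COL3A1, at 8.81 and 8.31 in siControl and 8.84 and 9.10 in siLSD1 cells. Of the 6 fibroblast markers, 4 lay above their control mean, and the list median was 0.20 in log2 units. The receptor PDGFRB was at 4.88 and 5.68 in siControl and 6.12 and 6.32 in siLSD1 cells (0.94, limma unadjusted p = 0.033, adjusted p = 0.986), while the matrix proteins DCN (-0.13) and COL1A2 (-0.11) had overlapping groups. The summed linear signal of the 6 was 864 and 624 in siControl and 857 and 989 in siLSD1 cells. The part of any of these in the results below was not tested.

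No noradrenergic factor passed the test between siLSD1 and siControl cells. Of the 17 probe sets, 16 were bright enough to be tested, and of these 9 lay above and 7 below their control mean, with log2 fold changes from -0.51 to 0.43 and a median of 0.0085. Over all tested probe sets 50.1% were higher, with a median of 0.0010. This split followed the scaling: on the deposited values 7 were higher and 9 lower (median -0.02, with -0.03 over all probe sets), and after median centring 13 were higher and 3 lower (median 0.16, with 0.15 over all). In limma 0 of the 16 passed an adjusted p of 0.05, where 0% of all probe sets passed, and 0 of the 16 had an unadjusted p under 0.05, where 3.45% of all did (1130 probe sets). The count under 0.05 was 1 with median centring, under which more of all probe sets also had such a p. It rose too in some fits with an array left out, which leave a single array in a group. With all 4 arrays the smallest unadjusted p among them was 0.0875, and their adjusted p ran from 0.986 to 1. The groups did not overlap for 3 of the 16 probe sets, against 32.7% of all tested probe sets. They did not overlap for 2 on the deposited scaling, against 32.9% of all, and for 4 after median centring, against 37.9% of all. For 15 of the 16 the difference between group means was smaller than the larger of the gaps within the groups, as it was for 80.7% of all. The exception was GATA3 209604_s_at.

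Under the assumptions of the limma fit, the intervals bound how large a change could have gone unseen. The median half-width of the 95% interval was 0.44 on the log2 scale for the 16 probe sets, or 1.36-fold, and 0.78 for all tested probe sets, or 1.72-fold. For 13 of the 16 the whole interval lay within 2-fold in either direction, which held for 46.3% of all probe sets (limma). The remaining 3 were GATA2 210358_x_at, GATA2 207954_at and TFAP2B 215686_x_at, none of them the brightest probe set of its gene. These intervals come from the limma fit, which drew most of its degrees of freedom from other probe sets. Intervals from the values of each probe set alone were not computed. By the limma intervals, a change of the size seen in KDM1A lay outside that of every member gene's brightest probe set. Smaller changes within the intervals could have gone unseen. The adjusted threshold is a separate matter, since KDM1A itself did not pass it. A p above the threshold does not show that the levels were equal.

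**Figure D1:**
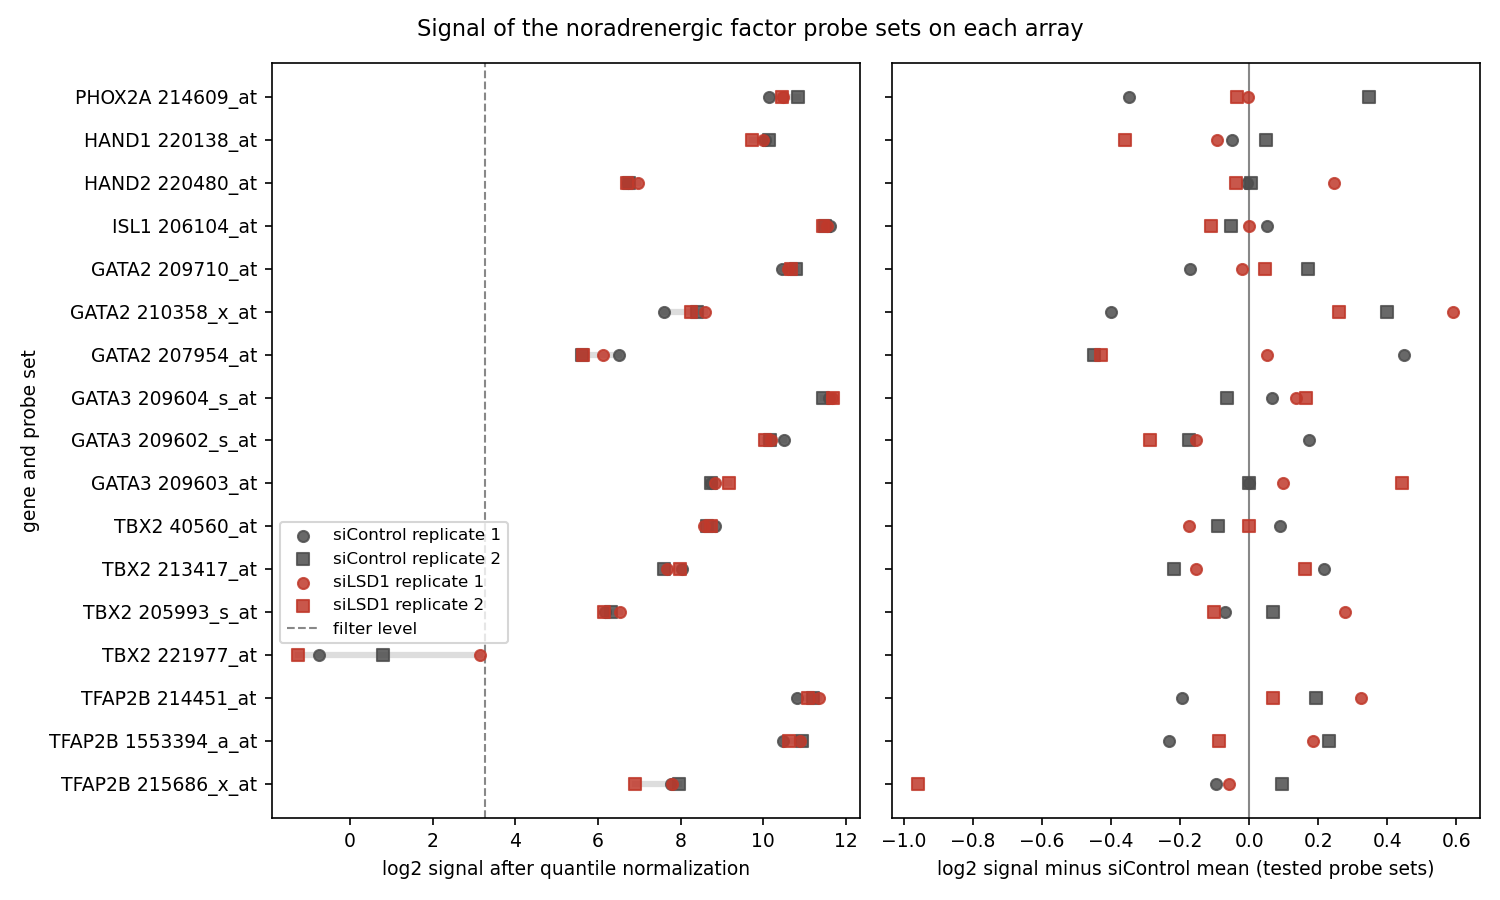
Log2 signals of the 17 probe sets of the 8 factors on each array (left; dashed line, filter level of 3.26) and the same signals minus the siControl mean for the 16 tested probe sets (right). Grey symbols are siControl and red symbols siLSD1 arrays, circles being replicate 1 and squares replicate 2; the 2 colours interleave for 13 of the 16 tested probe sets.

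The homeodomain and LIM-homeodomain factors differed little between the groups. PHOX2A (214609_at) had signals of 10.14 and 10.84 in siControl cells and 10.49 and 10.46 in siLSD1 cells. Both siLSD1 values thus lay between the control values, which were 0.69 apart. The means were 10.49 ± 0.49 and 10.47 ± 0.02 (SD, n = 2), a log2 fold change of -0.02 (95% interval -0.51 to 0.47, limma adjusted p = 0.999). The result rested on which control was used, since it was -0.37 without siControl replicate 1 and 0.33 without siControl replicate 2, and neither passed the threshold (adjusted p = 0.974 and 0.358). ISL1 (206104_at), whose signals were 11.60 and 11.50 in siControl and 11.55 and 11.44 in siLSD1 cells, had the smallest range over the 4 arrays of any member probe set, at 0.16. Its groups overlapped, and the log2 fold change of -0.06 had the interval -0.24 to 0.13, that is from 0.845-fold to 1.10-fold (adjusted p = 0.986).

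The HAND genes went in different directions by small amounts. HAND1 (220138_at) had signals of 10.04 and 10.13 in siControl and 9.99 and 9.73 in siLSD1 cells, the only member probe set for which both siLSD1 values lay below both controls. That held for 16% of all tested probe sets. The HAND1 groups stayed apart on the deposited scaling and overlapped after median centring. The means of 10.08 ± 0.07 and 9.86 ± 0.19 (SD, n = 2) gave a log2 fold change of -0.23 with an interval from -0.56 to 0.10, or 85.4% of the control signal (limma unadjusted p = 0.15, adjusted p = 0.986). Most of the distance came from siLSD1 replicate 2, the array with the high ribosomal RNA signal, and the value was -0.09 without it. HAND2 (220480_at), the partner gene needed for sympathetic noradrenergic differentiation, had signals of 6.73 and 6.74 in siControl and 6.98 and 6.69 in siLSD1 cells. The siLSD1 values lay on either side of the controls, and the log2 fold change of 0.10 (interval -0.52 to 0.73, adjusted p = 0.988) turned to -0.04 without siLSD1 replicate 1.

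The GATA factors were each read by 3 probe sets that did not give a common direction. For GATA2 the brightest, 209710_at, had signals of 10.45 and 10.79 in siControl and 10.60 and 10.67 in siLSD1 cells, again with the siLSD1 values between the controls. Its log2 fold change was 0.01, with an interval from -0.30 to 0.32 (limma adjusted p = 0.999). The probe set 210358_x_at, of a type that can share probes with other sequences, was at 7.60 and 8.39 in siControl and 8.59 and 8.26 in siLSD1 cells. The log2 fold change of 0.43 was the largest upward one of the 16, and it was 0.03 without siControl replicate 1, which was the lowest of the 4 arrays. The dimmest, 207954_at, was at 6.51 and 5.61 in siControl and 6.11 and 5.63 in siLSD1 cells, a log2 fold change of -0.19 with overlapping groups and an interval from -1.10 to 0.72. Without siControl replicate 1 this value turned to 0.26.

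After quantile normalization 2 GATA3 probe sets were the members with both siLSD1 arrays above both controls. The brightest, 209604_s_at, had signals of 11.58 and 11.45 in siControl and 11.65 and 11.68 in siLSD1 cells, with means of 11.52 ± 0.09 and 11.67 ± 0.02 (SD, n = 2). Such a separation upward was found for 16.7% of all tested probe sets. On the deposited scaling its groups overlapped, with a log2 fold change of 0.045, and without siControl replicate 2 the value was 0.08. With quantile normalization and all arrays the log2 fold change of 0.15 had an interval from -0.03 to 0.33, or from 0.981-fold to 1.25-fold, and this was the probe set with the smallest p of the members (limma unadjusted p = 0.0875, adjusted p = 0.986). The probe set 209603_at was also higher on both siLSD1 arrays, under each of the 3 scalings, at 8.83 and 9.18 against 8.73 and 8.73, a log2 fold change of 0.27 (interval -0.18 to 0.72, adjusted p = 0.986) that was 0.10 without siLSD1 replicate 2. The probe set 209602_s_at went the other way, from 10.50 and 10.15 in siControl to 10.17 and 10.04 in siLSD1 cells. Its groups overlapped, and the log2 fold change of -0.22 (interval -0.57 to 0.13) was -0.05 without siControl replicate 1 and -0.40 without siControl replicate 2.

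TBX2, a repressor of cell cycle inhibitor genes, was read by 4 probe sets, of which 3 were tested. In 40560_at the signals were 8.83 and 8.64 in siControl and 8.56 and 8.73 in siLSD1 cells, a log2 fold change of -0.09 with an interval from -0.53 to 0.35 (limma adjusted p = 0.987). In 213417_at they were 8.04 and 7.60 against 7.67 and 7.98, a log2 fold change of 0.0043, and in 205993_s_at 6.17 and 6.31 against 6.52 and 6.14, a log2 fold change of 0.09. The groups overlapped in all 3. The fourth, 221977_at, lay below the filter with signals of -0.76 and 0.79 in siControl and 3.14 and -1.25 in siLSD1 cells and so was left out of the test.

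TFAP2B was read by 3 probe sets, and the dimmest of them differed from the brighter pair. The signals of 214451_at were 10.82 and 11.21 in siControl and 11.34 and 11.09 in siLSD1 cells, a log2 fold change of 0.20 with an interval from -0.15 to 0.54 (limma adjusted p = 0.986). This value was 0.0011 without siControl replicate 1, which had the lowest signal. Those of 1553394_a_at were 10.47 and 10.93 against 10.88 and 10.61, a log2 fold change of 0.05 that turned to -0.18 without siControl replicate 1. In 215686_x_at, another probe set of the type that can share probes, they were 7.76 and 7.95 against 7.80 and 6.90, the largest downward log2 fold change of the 16 at -0.51 (interval -1.28 to 0.27). Here siLSD1 replicate 2 alone was low, and the value was -0.06 without it.

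**Figure D2:**
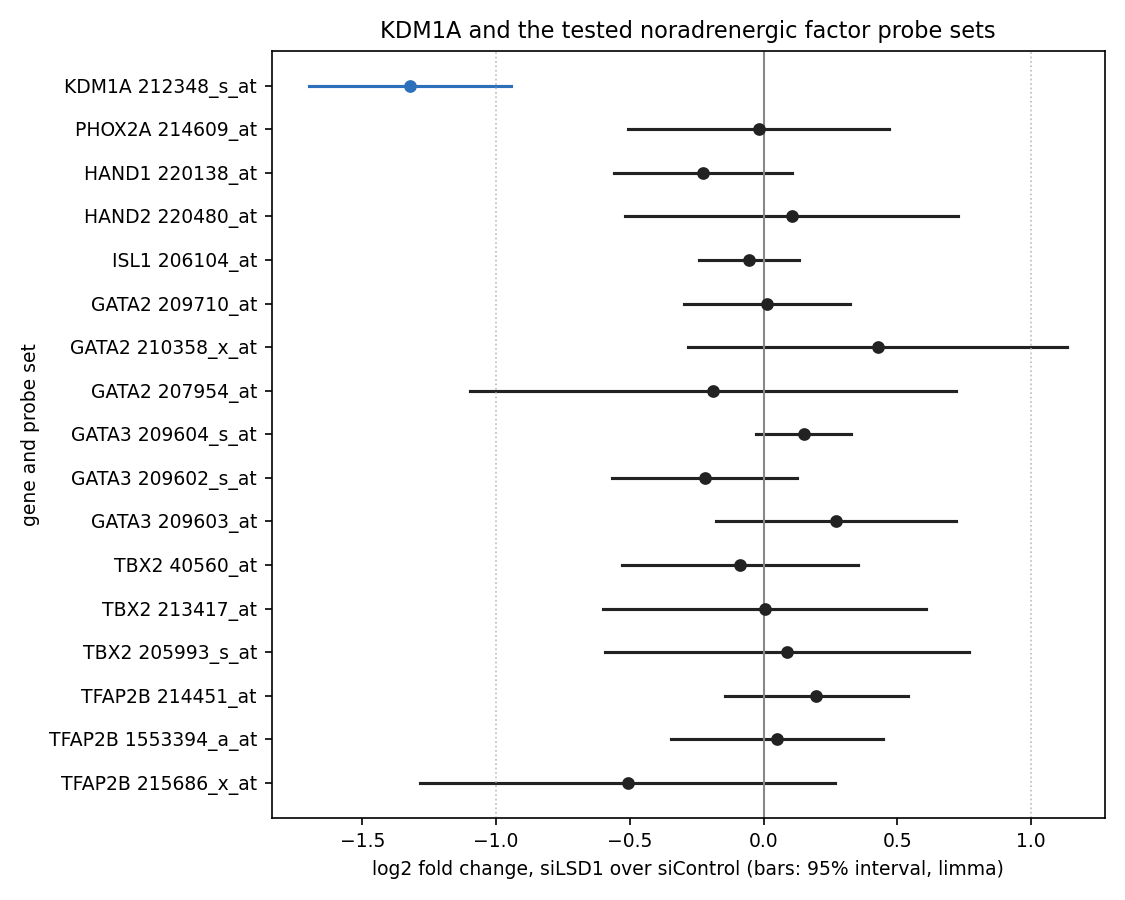
Log2 fold changes of siLSD1 over siControl with 95% intervals from limma for KDM1A (blue, top) and the 16 tested probe sets of the noradrenergic factors (black); dotted lines mark 2-fold changes. The interval of KDM1A runs from -1.70 to -0.94, and the intervals of all 16 others include 0.

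The 4 genes with several tested probe sets each had 3, of which 2 were higher and 1 lower. Of the 12 pairs within these genes, 8 therefore had log2 fold changes of opposite sign. That held for 47.6% of 22823 such pairs over 6931 genes. Pairs of 1 gene share probe sets, so the 12 were not independent of each other. The differences between the probe sets of a pair did not overlap between siControl and siLSD1 arrays in 5 of the 12, against 31.9% of all. The median difference between the log2 fold changes of a pair was 0.29 for the members and 0.33 for all genes. Leaving out 1 array at a time showed the weight of single transfections: the direction turned for 8 of the 16 probe sets when some array was left out. The HAND1 probe set stayed negative and all 3 GATA3 probe sets kept their sign, as did GATA2 210358_x_at, ISL1, TFAP2B 214451_at and TFAP2B 215686_x_at. No array was extreme for most of the members. siControl replicate 1 was the lowest array for 5 of the 16 probe sets (28% of all tested) and the highest for 5 (33.9% of all tested). The lowest array was siLSD1 replicate 2 for 6 (23.6% of all tested) and siLSD1 replicate 1 for 1 (22% of all tested).

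**Figure D3:**
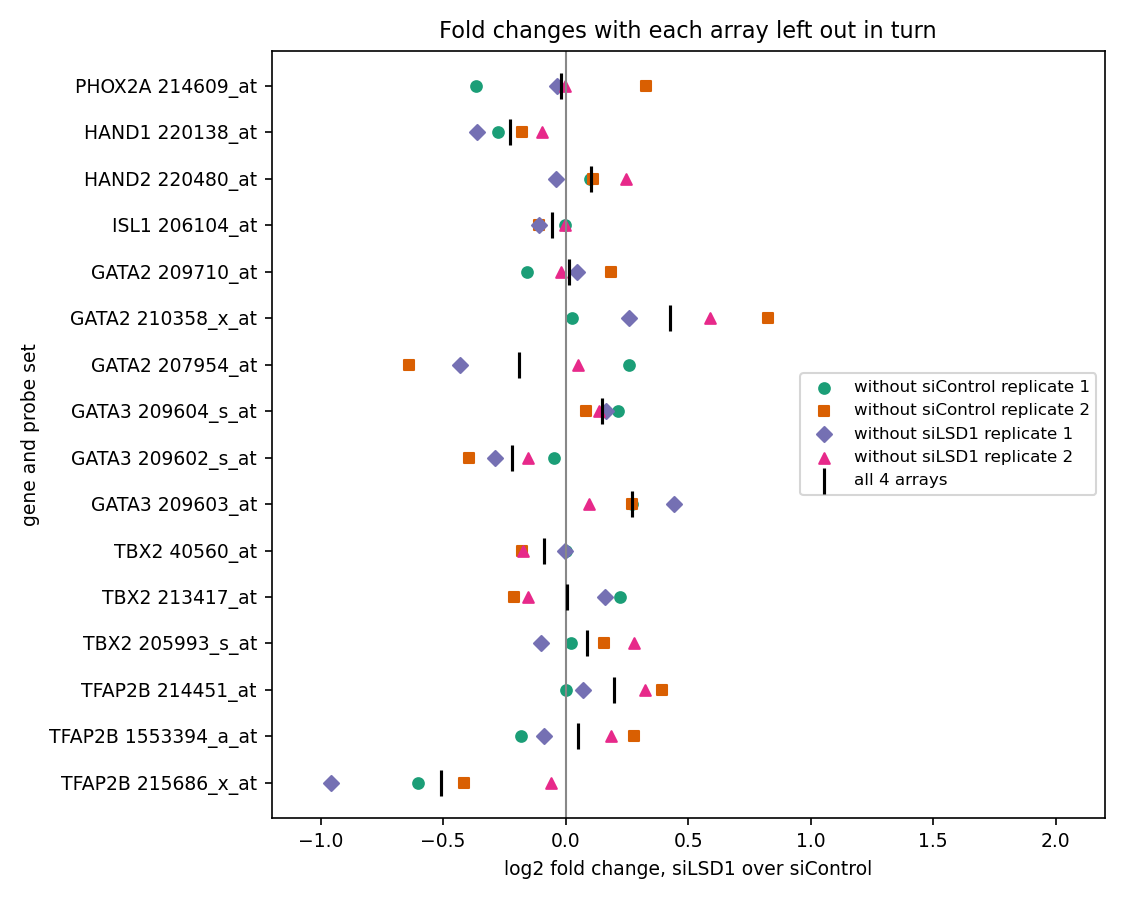
Log2 fold changes of the 16 tested probe sets with all 4 arrays (black bars) and with each array left out in turn (coloured symbols). For PHOX2A the value moves from -0.37 to 0.33 according to which control array is left out, while the HAND1 values all stay below 0 and those of GATA3 209604_s_at all stay above 0.

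Several of the genes have a non-coding neighbour read from the opposite strand. By the RefSeq starts (GRCh38.p14), the nearest start of GATA3-AS1 lies 157 bases from one of GATA3, that of HAND2-AS1 229 bases from that of HAND2, and that of GATA2-AS1 673 bases from one of GATA2. HAND2-AS1 was at 10.74 and 10.55 in siControl and 10.46 and 10.77 in siLSD1 cells by its brighter probe set (236141_at), with overlapping groups and a log2 fold change of -0.03 (interval -0.35 to 0.29). GATA2-AS1 had a log2 fold change of 0.19, also with overlapping groups. For GATA3-AS1 the probe set 240192_at gave -0.09 and 240827_at 0.38, and in the latter both siLSD1 values, 6.10 and 6.20, lay above the control values of 5.81 and 5.74. TBX2-AS1 (228978_at) was lower on both siLSD1 arrays, at 5.31 and 5.92 against 6.60 and 5.99, a log2 fold change of -0.68 with an interval from -1.52 to 0.17. The TBX2-AS1 groups stayed apart on the deposited scaling and overlapped after median centring. Those of GATA3-AS1 240827_at stayed apart on both. Over all tested probe sets both siLSD1 values lay above both controls for 16.7% and below them for 16%. None of the 6 probe sets of these neighbours passed the test (limma adjusted p from 0.986 to 0.995). These neighbours were chosen after the data had been seen.

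Other transcription factors of the adrenergic state, taken from a fixed list and each read by its brightest probe set, gave no call either. Of 17 listed genes 16 had a probe set and 14 were tested, of which 11 were higher, against 51.2% of all 13752 genes tested this way. Their median log2 fold change was 0.16, against 0.0073 for all. It was 0.31 with median centring and ran from 0.11 to 0.22 with each array left out in turn. In limma 0 passed an adjusted p of 0.05, as for 0% of all genes. An unadjusted p under 0.05 was found for 3 of the 14, against 2.74% of all genes, in a list chosen with earlier results of these data known. The groups did not overlap for 8 of the 14, against 32.2% of all genes. The brightest members were SOX11 and SOX4, SoxC factors of developing neurons, INSM2, a zinc finger factor of neuroendocrine cells, and SATB1, a chromatin organiser. SOX11 was at 11.54 and 11.41 in siControl and 11.78 and 11.64 in siLSD1 cells, a log2 fold change of 0.23 (adjusted p = 0.986). SOX4 was at 10.83 and 11.06 against 11.20 and 11.27, a log2 fold change of 0.30 (adjusted p = 0.986). INSM2 (-0.02) and SATB1 (0.02) had overlapping groups. The fibroblast markers given above also had a median above 0, and their part in these values was not tested.

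Cofactors and dimer partners of the 8 factors stood on both sides of 0. Of 19 listed genes 17 were tested, 12 of them lower and 5 higher, where 51.2% of all genes were higher. The median was -0.03, but 0.10 with median centring and 0.13 without siControl replicate 1. In limma 0 passed, while 1 of the 17 had an unadjusted p under 0.05, against 2.74% of all genes. Groups did not overlap for 2 of the 17, against 32.2% of all genes. The E-proteins TCF4, TCF12 and TCF3, with which HAND proteins form dimers, and the acetyltransferase CREBBP were the brightest. TCF4 was at 12.10 and 11.97 in siControl and 12.17 and 12.27 in siLSD1 cells, a log2 fold change of 0.19 (limma unadjusted p = 0.0287, adjusted p = 0.986). TCF12 (0.12), TCF3 (-0.03) and CREBBP (0.0090) had overlapping groups.

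Among paralogues of the members, 8 of the 18 with a probe set were bright enough to be tested, 5 of them higher. The median of 0.27 rested on the filter and on single arrays, since it was 0.010 with no filter, 0.18 on the deposited scaling, -0.07 with the mean of all probe sets of a gene and 4.7e-06 without siControl replicate 2. In limma 0 passed, and the groups did not overlap for 1 of the 8, against 32.2% of all genes. The brightest was TBX3, the T-box repressor most closely related to TBX2, which is also on the list of other adrenergic-state factors. It was at 7.97 and 7.95 in siControl and 8.68 and 9.23 in siLSD1 cells, with both siLSD1 values above both controls. The means of 7.96 ± 0.010 and 8.95 ± 0.39 (SD, n = 2) gave a log2 fold change of 0.99 with an interval from 0.44 to 1.55, or 1.99-fold (unadjusted p = 0.0037, adjusted p = 0.986 in limma). The intervals of the 3 tested TBX2 probe sets reached at most 0.77, and the difference between the 2 genes was not tested. GATA4 (0.44, or 0.03 without siLSD1 replicate 2), ISL2 (-0.08) and PRRX2 (-0.16) followed in level, with overlapping groups.

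The genes that give noradrenergic cells their phenotype were split evenly. Of 16 tested, 8 lay on either side of 0. The median was 0.0034, or -0.03 on the deposited scaling and 0.14 with median centring. In limma 0 passed, while 3 of the 16 had an unadjusted p under 0.05, against 2.74% of all genes. Besides DLK1 these were the noradrenaline transporter SLC6A2 and the receptor tyrosine kinase RET, which were named after their values were seen. SLC6A2 was at 9.62 and 9.38 in siControl and 9.997 and 10.17 in siLSD1 cells, a log2 fold change of 0.58 (limma unadjusted p = 0.00565, adjusted p = 0.986). RET was at 8.65 and 8.55 against 8.99 and 9.13, a log2 fold change of 0.45 (limma unadjusted p = 0.0351, adjusted p = 0.986). In both genes the siLSD1 values lay above the controls, and in DLK1 they lay below. Groups did not overlap for 4 of the 16 phenotype genes, 3 upward and 1 downward, against 32.2% of all genes. DLK1, a membrane ligand of the Notch family found on chromaffin cells, was at 12.28 and 12.45 in siControl and 12.25 and 12.03 in siLSD1 cells, a log2 fold change of -0.23 (adjusted p = 0.986) that was -0.12 without siLSD1 replicate 2. DBH, the enzyme that makes noradrenaline from dopamine, was at 11.05 and 10.98 against 11.00 and 10.63, a log2 fold change of -0.20 with overlapping groups that was -0.02 without siLSD1 replicate 2. CHGA, a granin of secretory granules, differed more within the groups than between them, with 10.37 and 12.02 against 10.44 and 11.22, and the nicotinic receptor subunit CHRNA3 had a log2 fold change of -0.02.

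Transcription factors of the mesenchymal state lay on both sides of 0. Of 18 with a probe set 11 were tested, 6 of them higher. The median was 0.02, but 0.14 with median centring, -0.16 with no filter and -0.03 on the deposited scaling, and it ran from -0.30 to 0.38 with each array left out in turn. In limma 0 passed, nor did any have an unadjusted p under 0.05. Groups did not overlap for 4 of the 11, against 32.2% of all genes. TWIST1, a helix-loop-helix factor of mesenchyme, was at 9.32 and 11.06 in siControl and 11.12 and 11.43 in siLSD1 cells. The log2 fold change of 1.09 (interval -0.02 to 2.19, adjusted p = 0.986) was 0.22 without siControl replicate 1 and 1.95 without siControl replicate 2. The part of the fibroblast markers in this value was not tested. The glucocorticoid receptor NR3C1 (-0.22), MAFF (-0.10) and the zinc finger repressor SNAI2 (-0.25) were the next brightest.

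**Figure D4:**
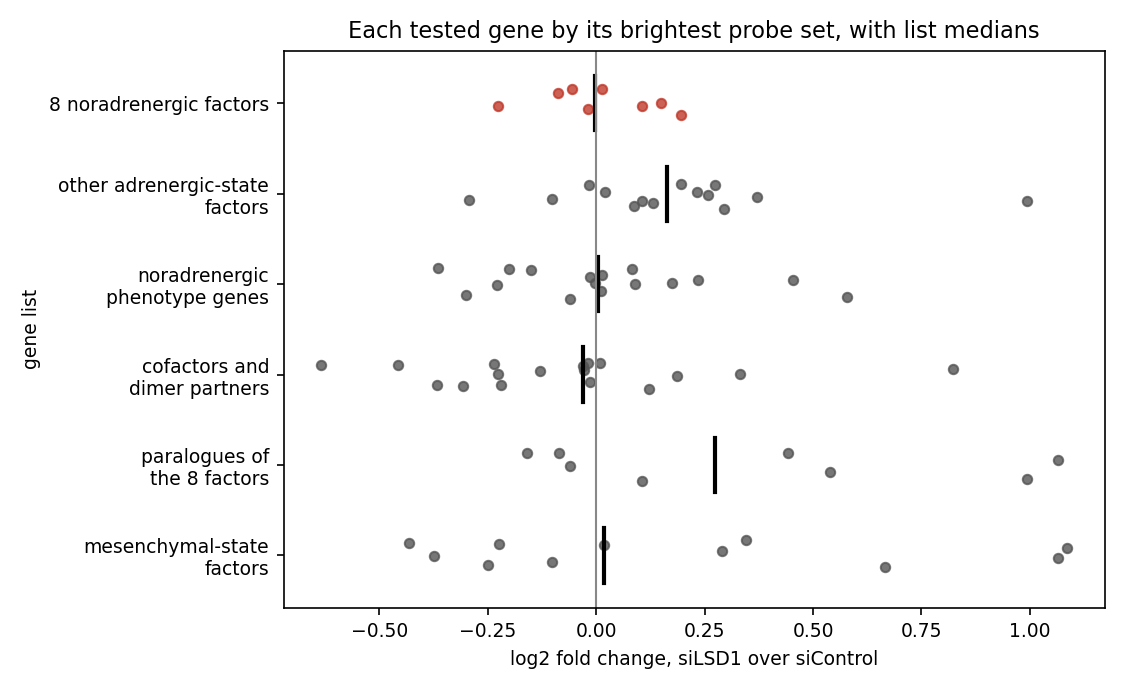
Log2 fold changes of siLSD1 over siControl for each tested gene by its brightest probe set, in the 8 noradrenergic factors (red) and in the lists of related genes (grey); black bars are list medians and the vertical offset within a list has no meaning. The 8 factors lie between -0.23 and 0.20, with a median of -0.0031.

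The brightest member probe set, GATA3 209604_s_at, was set against all 26484 other tested probe sets with 1 gene symbol by the root-mean-square difference of signals centred on their own mean over the 4 arrays. The nearest were those of KCMF1 (0.0078), TET1 (0.0090) and CAPN1 (0.011), in log2 units. Over only 4 arrays many probe sets share such a profile by their small range, and the nearness is given as a description.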

How the data were processed

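The authors deposited log2 signals, 1 for each probe set on each array. The base was found from the values, whose antilogs had a 2% trimmed mean of 100.0 on each array, and the summary method and software were not given in the sources used here. Total RNA was labelled with biotin, per the labels. Control probe sets (62 of 54675) were left out, the other 54613 were quantile normalized, and the 32768 whose mean over the 4 arrays was at or above the 40th percentile (3.26) were tested in R 4.3.3 with limma 3.58.1 (lmFit, eBayes with a trend, two-sided, Benjamini-Hochberg over all of them, threshold 0.05). The moderated test drew most of its 7.27 degrees of freedom from other probe sets. It was also run on simulated data with variances drawn from the same fit, which cannot check its assumptions on these arrays. Symbols came from the platform annotation of 2016, and 41037 of 41091 had their Entrez identifier in the RefSeq names. Groups and replicate numbers came from the sample titles. The title of siLSD1 replicate 2 shortens the name of the target, and the array was grouped on that title. No 2 arrays held identical values, and precision is limited by the number of arrays. The members and gene lists were chosen with earlier results of these data known. In the members every probe set was described, and in each other list of related genes the 4 genes with the highest mean signal. SLC6A2, RET and the neighbours on the opposite strand were named outside this rule, after the data had been seen. The cell type markers were not named by level either. Motifs were counted in Python 3.11.15. The alternatives were other scalings, filters, probe set rules and variance models, the replicate number as a block, and leaving out each array.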

Additional observations from a re-analysis of the deposited data

How the results depend on the processing

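No member probe set passed the threshold under any of the 12 alternatives, the smallest adjusted p being 0.29 in limma, and 6 of the 16 kept their direction under all of them. Median centring moved the median of all tested probe sets to 0.15 and so raised every value against the deposited scaling. It turned PHOX2A to 0.11, ISL1 to 0.024, GATA2 207954_at to 0.0016 and TBX2 40560_at to 0.11. The deposited scaling turned GATA2 209710_at to -0.028 and TFAP2B 1553394_a_at to -0.0043. The mean of all probe sets of a gene gave 0.23 for TBX2 in place of -0.09, since it takes in the probe set below the filter, and -0.087 for TFAP2B in place of 0.20. The mean for TFAP2B includes its dimmest, lower probe set. Against the deposited scaling, median centring adds the same amount to every log2 fold change by construction. The cause of the turns on the deposited scaling was not tested. With each array left out in turn, values ran from -0.37 to 0.33 for PHOX2A and from -0.038 to 0.25 for HAND2. They ran from -0.16 to 0.18 for GATA2 209710_at and from -0.64 to 0.26 for GATA2 207954_at. For TBX2 they ran from -0.18 to 0.0033 in 40560_at, from -0.21 to 0.22 in 213417_at and from -0.10 to 0.28 in 205993_s_at, and for TFAP2B 1553394_a_at from -0.18 to 0.28. Over all probe sets, those with an unadjusted p under 0.05 were 630 higher and 500 lower, and with median centring 1385 and 234. The count called higher over all was 0, or 1 without siControl replicate 2 (RARS1, 3.58), and the count called lower was 0 throughout. With the replicate number as a block, 0 member probe sets and 0 of all probe sets were called, and the values were the same by construction. Replicate 1 deviations of the groups correlated at -0.04 over the tested probe sets, which gave no sign that the numbers pair the transfections.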

Other observations

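Some probe sets of 1 gene moved apart between the groups, which was seen after their values were known. The signal of GATA3 209604_s_at exceeded that of GATA3 209602_s_at by 1.08 and 1.30 on the siControl arrays and by 1.48 and 1.64 on the siLSD1 arrays, in log2 units. That of TFAP2B 214451_at exceeded TFAP2B 1553394_a_at by 0.35 and 0.28 on the siControl arrays and by 0.46 and 0.47 on the siLSD1 arrays. In TFAP2B the excess of 214451_at over 215686_x_at was 3.06 and 3.26 against 3.54 and 4.19. Of the 12 pairs of the members, 5 had differences that did not overlap between the groups, where 31.9% of the 22823 pairs of all genes did. The 12 pairs came from 4 genes and shared probe sets, so they were not independent of each other. No test of these differences was made.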
